A study of Mus musculus with 8 samples.

Results

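The lung epithelial transcription factors are 9 genes, Nkx2-1, Foxa1, Foxa2, Foxp2, Gata6, Cebpa, Grhl1, Grhl2 and Irx2, taken by name from the 27179 genes of a raw count table. All 9 had reads in all 8 libraries, with 29 to 3765 counts per library, and all 9 passed the filter on low counts, which kept 15583 genes. The libraries were bulk RNA-seq of lung cells from female C57BL/6 mice (C57BL/6J in the study's methods) of the Eml4-Alk model of non-small cell lung cancer, 18 to 22 weeks old, in which an adenovirus carrying Cas9 and a pair of guide RNAs had rearranged Eml4 and Alk in the lung 11 to 12 weeks before. Every mouse in both groups carried this rearrangement and had received 4.5 nmol of QZ1-(PEG2K), a fluorescent peptide probe switched on by protease cleavage, through the tail vein. Live cells without CD45 and CD11b were sorted by probe signal set against EpCAM, with at least 100000 cells per population, into QZ1-hi (4 libraries, labelled QZ+) and QZ1-lo (4 libraries, labelled QZ-). The study's general protocol dissected tumors away from the surrounding lung before dissociation, and which of these tissues went into the sort is not given in the sources used here, so the share of tumor cells in a library is not known. All animals were tumor-bearing and probe-treated. The labels call the 4 libraries of a group biological replicates but do not say which libraries came from the same mouse, so p-values measure the spread between these libraries.

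Lung epithelium is set up and kept by a small group of DNA-binding proteins that act on shared enhancers. NKX2-1 is the homeodomain protein that marks lung endoderm and drives surfactant genes, FOXA1 and FOXA2 are forkhead proteins that open closed chromatin, and GATA6 and CEBPA take part in the maturation of distal epithelium. FOXP2 is a forkhead repressor of developing airway, IRX2 is an Iroquois homeodomain protein of the lung bud, and the Grainyhead-like proteins GRHL1 and GRHL2 hold up genes of cell junctions such as Cdh1.

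The stretches just upstream of mRNA starts are shown for 4 members that differed in what was measured: Nkx2-1, Foxa2 and Irx2, which were lower in QZ1-hi, and Cebpa, which was not. Each is the 250 bases before an mRNA start, written 5′ to 3′ on the gene's strand, from RefSeq on GRCm38.p6, with capitals marking matches to 5 motifs searched on both strands. Nkx2-1 is at chr12:56536909-56537158 on the minus strand and Foxa2, at the start listed last for it, at chr2:148045465-148045714 on the minus strand. Irx2 is at chr13:72628570-72628819 on the plus strand and Cebpa at chr7:35119043-35119292 on the plus strand.
Nkx2-1: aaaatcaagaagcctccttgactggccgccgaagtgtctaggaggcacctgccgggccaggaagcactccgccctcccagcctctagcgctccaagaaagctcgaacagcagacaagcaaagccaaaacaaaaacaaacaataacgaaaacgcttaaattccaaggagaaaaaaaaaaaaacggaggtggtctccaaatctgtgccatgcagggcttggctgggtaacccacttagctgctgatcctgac
Foxa2: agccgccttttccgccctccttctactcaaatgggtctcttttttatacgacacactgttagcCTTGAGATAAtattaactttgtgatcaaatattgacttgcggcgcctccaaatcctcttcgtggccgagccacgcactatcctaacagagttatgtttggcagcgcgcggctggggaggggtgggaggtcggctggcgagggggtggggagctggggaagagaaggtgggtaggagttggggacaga
Irx2: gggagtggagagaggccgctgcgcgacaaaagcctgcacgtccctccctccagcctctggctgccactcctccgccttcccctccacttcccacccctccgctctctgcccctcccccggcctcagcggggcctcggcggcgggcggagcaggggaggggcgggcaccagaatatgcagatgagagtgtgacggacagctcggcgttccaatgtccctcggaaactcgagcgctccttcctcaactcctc
Cebpa: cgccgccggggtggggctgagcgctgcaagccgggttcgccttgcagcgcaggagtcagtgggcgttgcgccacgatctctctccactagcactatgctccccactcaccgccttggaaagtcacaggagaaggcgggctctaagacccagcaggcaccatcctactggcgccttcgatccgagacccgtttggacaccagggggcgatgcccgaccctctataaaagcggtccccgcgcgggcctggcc
The Foxa2 stretch is the 1 of its 3 listed upstream stretches with any match, and the other 2 held none. It held a match to the NKX2-1 motif CTCAAG, on the opposite strand at -187 from the start, which overlapped a match to the GATA motif AGATAA at -183. The stretches printed for Nkx2-1, Irx2 and Cebpa held no match to these motifs or to the forkhead motif TGTTTNC, the C/EBP motif TTGCNNAA or the Grainyhead motif AACCNGTT. Of the stretches not printed, that of Foxa1 held a forkhead match at -141, on the opposite strand, and those of Grhl1 held no match. Of 32851 RefSeq promoter stretches of this length, 17.8% held the forkhead motif, 13.3% the NKX2-1 motif, 9.99% the GATA motif, 9.56% the C/EBP motif and 1.79% the Grainyhead motif. The matches describe letters in these windows, and binding was not measured.

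Total counts were 18380918 to 26847938 per library. The mitochondrial ribosomal RNA genes mt-Rnr1 and mt-Rnr2 took 50.1 ± 8.76% of these counts in QZ1-hi and 37.3 ± 7.50% in QZ1-lo (SD, n = 4, two-sided exact permutation p = 0.0857). Levels are given as CPM, the usual depth-scaled count, with library sizes adjusted by TMM factors, and 3 counts corresponded to 0.0894 to 0.179 CPM. The makeup of the populations differed: all 10 endothelial markers were higher in QZ1-hi (summed 1008 to 2497 CPM against 76.0 to 324), as were 6 of 8 fibroblast markers (1026 to 2034 against 75.1 to 271), 5 of 8 pericyte and smooth muscle markers (84.6 to 130 against 17.2 to 41.3) and 4 of 4 mesothelial markers (38.4 to 268 against 5.93 to 36.5). No endothelial or mesothelial marker was at 0 in any library, whereas the fibroblast markers Tcf21 and Wnt2 and the pericyte marker Higd1b were at 0 in at least 1 QZ1-lo library. The mesothelial count fell to 0 without QZ1-hi replicate 2, to 1 without QZ1-lo replicate 3 or 4 and to 2 without QZ1-lo replicate 1. Of the 10 pan-epithelial genes, 9 were lower in QZ1-hi (594.5 to 940.6 CPM summed against 1707 to 2334). Although the sort took cells without CD45, its gene Ptprc had 131 ± 64.2 CPM in QZ1-hi and 125 ± 30.0 CPM in QZ1-lo. The CD11b gene Itgam had 42.1 ± 10.6 and 46.7 ± 3.47 CPM. No myeloid or lymphoid marker of 9 tested passed the threshold in edgeR, DESeq2 or limma voom (0 of 9 also at an unadjusted p of 0.05), and their summed level, mostly Lyz2, which alveolar type 2 cells also express, was 2984 to 6372 CPM in QZ1-hi and 2159 to 4223 CPM in QZ1-lo. No erythroid marker of 4 tested passed it in any of the 3 tools, 3 having an unadjusted p under 0.05, with sums of 131 to 1006 CPM against 282 to 3097 CPM, although 3 were called lower without QZ1-lo replicate 1 and 4 with library size as the only scaling. The part of these mixtures in the results on the 9 factors was not tested, and in bulk RNA fewer cells of a type and less RNA per cell cannot be told apart.

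Of the 9 factors, 6 had lower levels in QZ1-hi than in QZ1-lo (edgeR quasi-likelihood test over all genes, Benjamini-Hochberg threshold of 0.05), 0 were higher and 3 were not called. On a scale set by pan-epithelial genes, described further on, 0 of the 9 factors and 0.462% of all genes tested were called lower. Without that reference, DESeq2 and limma voom also called 6 lower and 0 higher, and 0 were higher at an unadjusted p of 0.05. Over all genes tested, edgeR called 8.21% lower and 9.88% higher without it. The same 6 factors, Nkx2-1, Foxa1, Foxa2, Grhl1, Grhl2 and Irx2, had every QZ1-hi library below every QZ1-lo library, a separation seen in 10.7% of all genes tested. The median log2 fold change (QZ1-hi over QZ1-lo) was -0.90 over the 9 factors and 0.024 over all genes tested. Foxp2, Gata6 and Cebpa were the 3 that did not pass the test.

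**Figure D1:**
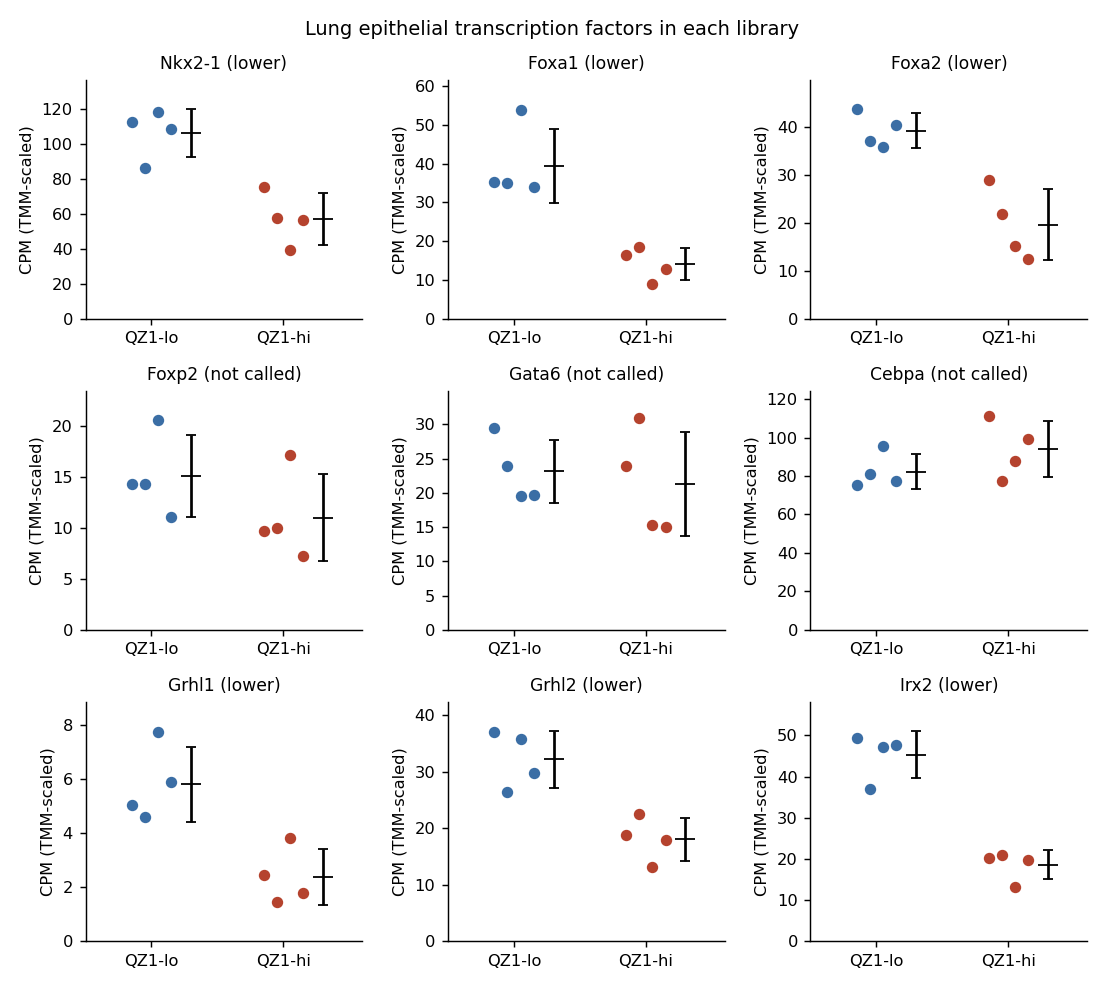
CPM (TMM-scaled, vertical axes from 0) of each of the 9 factors in the 4 QZ1-lo (blue) and 4 QZ1-hi (red) libraries, with the mean and SD in black and the edgeR call in each title. The points of Nkx2-1, Foxa1, Foxa2, Grhl1, Grhl2 and Irx2 lie lower in QZ1-hi without overlap, and the points of Foxp2, Gata6 and Cebpa overlap. On the pan-epithelial scale 0 of the 9 factors and 0.462% of all genes tested were called lower.

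Nkx2-1 (Entrez Gene 21869, chr12:56531935-56536908, minus strand) encodes the homeodomain regulator of lung identity. Its level was 75.3, 57.8, 39.1 and 56.3 CPM in QZ1-hi replicates 1 to 4 and 112, 86.3, 118 and 108 CPM in QZ1-lo replicates 1 to 4. The highest QZ1-hi library stayed under the lowest QZ1-lo library. The means were 57.1 ± 14.8 and 106 ± 13.9 CPM (SD, n = 4), 1.86-fold lower in QZ1-hi (log2 fold change -0.90, SE 0.19, edgeR adjusted p = 0.00625).

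Foxa1 (Entrez Gene 15375, chr12:57540628-57548029, minus strand), a forkhead pioneer factor, had the largest log2 fold change of the 9 in the fit to all libraries. It had 16.4, 18.4, 8.96 and 12.8 CPM in QZ1-hi and 35.2, 35.0, 53.8 and 34.0 CPM in QZ1-lo. QZ1-lo replicate 3 stood well above the other 3 QZ1-lo libraries, which lay close together, and no QZ1-hi library came near any of them. Foxa1 was 2.79-fold lower in QZ1-hi (log2 fold change -1.48, SE 0.23, edgeR adjusted p = 0.00138), and its log2 fold change was -1.65 to -1.29 when each library was left out in turn.

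Foxa2 (Entrez Gene 15376, chr2:148042877-148046969, minus strand) encodes the related forkhead pioneer of lung endoderm. Its QZ1-hi libraries had 28.9, 21.9, 15.2 and 12.5 CPM and its QZ1-lo libraries 43.8, 37.0, 35.8 and 40.5 CPM. The QZ1-hi libraries were more spread than the QZ1-lo libraries, and the ranges did not meet. Means of 19.6 ± 7.35 and 39.3 ± 3.61 CPM (SD, n = 4) differed 1.99-fold (log2 fold change -0.99, SE 0.23, edgeR adjusted p = 0.0112). Foxa1 and Foxa2 were near each other in counts in most libraries: the ratio of Foxa1 to Foxa2 counts was 0.568 to 1.02 in QZ1-hi and 0.804 to 1.50 in QZ1-lo, which overlapped, with the highest ratio in QZ1-lo replicate 3.

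Irx2 (Entrez Gene 16372, chr13:72624430-72634196, plus strand), of the Iroquois homeodomain family, had the smallest adjusted p of the 9. It had 20.3, 20.99, 13.2 and 19.7 CPM in QZ1-hi and 49.4, 36.9, 47.3 and 47.7 CPM in QZ1-lo. A single library stood below the rest in each population, QZ1-hi replicate 3 and QZ1-lo replicate 2, and the populations stayed well apart. From means of 18.6 ± 3.58 and 45.3 ± 5.68 CPM (SD, n = 4), Irx2 was 2.44-fold lower in QZ1-hi (log2 fold change -1.29, SE 0.17, edgeR adjusted p = 0.000571).

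The Grainyhead-like factors were both lower in QZ1-hi, from very different levels. Grhl2 (Entrez Gene 252973, chr15:37232821-37363569, plus strand) had 18.8, 22.4, 13.2 and 17.8 CPM in QZ1-hi and 37.1, 26.3, 35.8 and 29.8 CPM in QZ1-lo. Its gap was narrow, from QZ1-hi replicate 2 to QZ1-lo replicate 2, and it was 1.78-fold lower in QZ1-hi (log2 fold change -0.84, SE 0.18, edgeR adjusted p = 0.00808). Grhl1 (Entrez Gene 195733, chr12:24572232-24617391, plus strand) had 2.46, 1.43, 3.82 and 1.79 CPM in QZ1-hi, from 29 to 66 counts, and 5.04, 4.60, 7.74 and 5.89 CPM in QZ1-lo, from 113 to 214 counts. These are the fewest counts of any of the 9, and the highest QZ1-hi library came close to the lowest QZ1-lo library without reaching it. Grhl1 was 2.45-fold lower in QZ1-hi (log2 fold change -1.29, SE 0.36, edgeR adjusted p = 0.0271). That call was lost when QZ1-hi replicate 1, 2 or 4 or QZ1-lo replicate 3 or 4 was left out, with adjusted p up to 0.0740, while the log2 fold change stayed between -1.64 and -1.12.

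Foxp2, Gata6 and Cebpa did not pass the test in either direction. Foxp2 (Entrez Gene 114142, chr6:14901349-15441977, plus strand), the forkhead repressor, had 9.66, 9.98, 17.1 and 7.21 CPM in QZ1-hi and 14.3, 14.3, 20.6 and 11.1 CPM in QZ1-lo. Replicate 3 was the highest library in both populations, and QZ1-hi replicate 3 exceeded 3 of the 4 QZ1-lo libraries. The log2 fold change was -0.46 with a 95% interval of -1.06 to 0.15 (adjusted p = 0.318, edgeR), an interval that includes the estimates of Nkx2-1, Foxa2 and Grhl2.

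Gata6 (Entrez Gene 14465, chromosome 18, plus strand), a zinc finger factor of endoderm, had 24.0, 30.9, 15.3 and 15.02 CPM in QZ1-hi and 29.4, 23.9, 19.6 and 19.7 CPM in QZ1-lo. The QZ1-hi libraries fell on both sides of the QZ1-lo range, with the highest Gata6 value of all 8 libraries in QZ1-hi replicate 2. The log2 fold change was -0.12 with a 95% interval of -0.65 to 0.41 (adjusted p = 0.808, edgeR), and it turned positive, 0.018 and 0.043, without QZ1-lo replicate 1 and without QZ1-hi replicate 4.

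Cebpa (Entrez Gene 12606, chr7:35119293-35121928, plus strand), a leucine zipper factor that many differentiated cells also use, had the highest QZ1-hi level of the 9 per exonic length. It had 111, 77.5, 88.0 and 99.4 CPM in QZ1-hi and 75.2, 80.9, 95.6 and 77.6 CPM in QZ1-lo. The populations overlapped across most of their range. The log2 fold change was 0.19 with a 95% interval of -0.11 to 0.49 (adjusted p = 0.415, edgeR), an interval that excludes the estimates of all 6 factors that were lower, and it was -0.25 (adjusted p = 0.491) when library size was the only scaling.

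Because levels of different genes can be set side by side only per length, CPM was divided by the exonic length in kilobases. In QZ1-lo the order was Nkx2-1 (37.4 ± 4.89 CPM per kilobase, SD, n = 4), Cebpa (31.2 ± 3.48), Foxa2 (16.6 ± 1.52), Irx2 (13.8 ± 1.73), Foxa1 (11.9 ± 2.87), Grhl2 (3.74 ± 0.587), Gata6 (3.56 ± 0.711), Grhl1 (1.05 ± 0.251) and Foxp2 (0.923 ± 0.244). Libraries of 4 neighbouring pairs in that order overlapped, namely Nkx2-1 with Cebpa, Irx2 with Foxa1, Grhl2 with Gata6 and Grhl1 with Foxp2, so their order is within the spread. In QZ1-hi Cebpa stood first at 35.7 ± 5.50 CPM per kilobase, clear of Nkx2-1 at 20.1 ± 5.21, which was in turn clear of Foxa2 at 8.29 ± 3.10. Irx2 (5.65 ± 1.09), Foxa1 (4.25 ± 1.26), Gata6 (3.27 ± 1.17) and Grhl2 (2.10 ± 0.442 CPM per kilobase) followed with overlapping neighbours, and Foxp2 (0.672 ± 0.261) and Grhl1 (0.428 ± 0.190) were lowest and overlapped each other. Cebpa and Nkx2-1, Grhl2 and Gata6, and Grhl1 and Foxp2 thus changed places between the populations, and the libraries of the last 2 of these pairs overlapped in both populations.

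**Figure D2:**
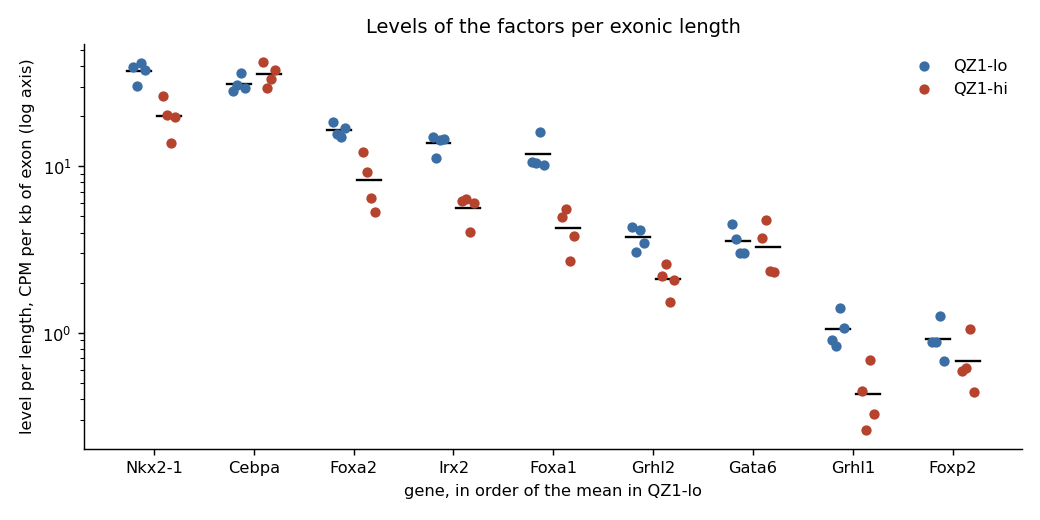
Level per exonic length (CPM per kilobase, log axis) of the 9 factors in each QZ1-lo (blue) and QZ1-hi (red) library, ordered by the QZ1-lo mean, with black lines at the means. Nkx2-1 is first in QZ1-lo at 37.4 and Cebpa is first in QZ1-hi at 35.7 CPM per kilobase.

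Ratios of counts within a library do not depend on how libraries are scaled. The ratio of Cebpa to Nkx2-1 counts was 1.48, 1.34, 2.25 and 1.77 in QZ1-hi replicates 1 to 4 and 0.670, 0.937, 0.810 and 0.715 in QZ1-lo replicates 1 to 4. All QZ1-hi libraries had more Cebpa than Nkx2-1 counts, all QZ1-lo libraries had fewer, and the means were 1.71 ± 0.403 and 0.783 ± 0.118 (SD, n = 4). Sftpc, which encodes surfactant protein C and is a known target of NKX2-1, had 52.2 to 100.5 counts per Nkx2-1 count in QZ1-hi and 17.6 to 27.4 in QZ1-lo, also without overlap. The ratio of Gata6 to Nkx2-1 (0.267 to 0.534 against 0.166 to 0.277) and that of Nkx2-1 to Foxa1 (3.14 to 4.58 against 2.20 to 3.19) overlapped between the populations, as did that of the club cell gene Scgb1a1 to Nkx2-1 (3.56 to 13.8 against 10.7 to 40.3). No test was run on these ratios.

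**Figure D3:**
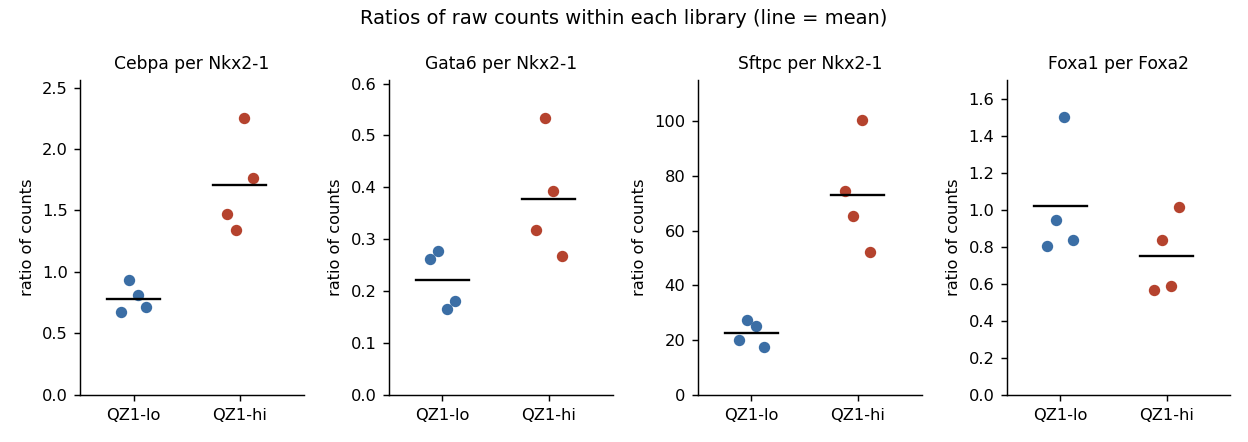
Ratios of raw counts of gene pairs in each library (vertical axes from 0, lines at the means, QZ1-lo in blue and QZ1-hi in red). Cebpa per Nkx2-1 and Sftpc per Nkx2-1 do not overlap between the populations, while Gata6 per Nkx2-1 and Foxa1 per Foxa2 do.

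To place the factors beside other epithelial genes, the libraries were rescaled so that the geometric mean CPM of the 10 pan-epithelial genes (among them Epcam, Cdh1, Krt8, Krt18, Krt19, Cldn7, Cldn4, Esrp1 and Rab25) was equal in all 8, and the same edgeR test was run. EpCAM protein was an axis of the sort. On this scale the median log2 difference of all genes tested was 1.41, 79.2% of them were called higher and 0.462% lower, and the counts of factors are read against those shares. No factor was called lower (0 also at an unadjusted p of 0.05) and 3 were called higher. Cebpa had a log2 difference of 1.59 (adjusted p = 8.12e-05, edgeR), Gata6 of 1.20 (adjusted p = 0.000468) and Foxp2 of 0.98 (adjusted p = 0.0125), of which Cebpa alone lay above the median of all genes. Which cells of the mixed populations carried the reads of these 3 factors was not tested. The Foxp2 call was lost without QZ1-hi replicate 3, at a log2 difference of 0.54 and an adjusted p of 0.0898. The 6 factors that were lower on the TMM scale lay between -0.14 for Foxa1 and 0.53 for Grhl2. None of these 6 was called: Nkx2-1 had 0.45 (95% interval -0.05 to 0.95, adjusted p = 0.0884, edgeR), Foxa2 0.30 (adjusted p = 0.262), Grhl2 0.53 (adjusted p = 0.0540), Grhl1 0.13 (adjusted p = 0.792), Irx2 0.07 (adjusted p = 0.788) and Foxa1 -0.14 (adjusted p = 0.613). Their log2 differences were thus nearer to those of the pan-epithelial genes than to the median of all genes, and the intervals do not show that they were equal.

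When the 12 alveolar type 2 genes set the scale in place of the pan-epithelial genes, the same 6 factors as on the TMM scale were called lower. The median log2 difference of all genes was -0.10, 7.39% of them were called lower and 6.9% higher. Nkx2-1 (-1.05, adjusted p = 0.00321, edgeR), Foxa1 (-1.61, 0.000464), Foxa2 (-1.20, 0.00157), Grhl1 (-1.42, 0.0226), Grhl2 (-0.96, 0.0118) and Irx2 (-1.42, 0.000890) were called lower. Foxp2 (-0.56, adjusted p = 0.281), Gata6 (-0.28, 0.609) and Cebpa (0.06, 0.905) were not called. The sign of the difference for Nkx2-1, Foxa2, Foxp2, Gata6, Grhl1, Grhl2 and Irx2 therefore depended on which reference set the scale, and on the TMM scale the reference lists had median log2 fold changes of -1.28 (pan-epithelial) and 0.29 (alveolar type 2).

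**Figure D4:**
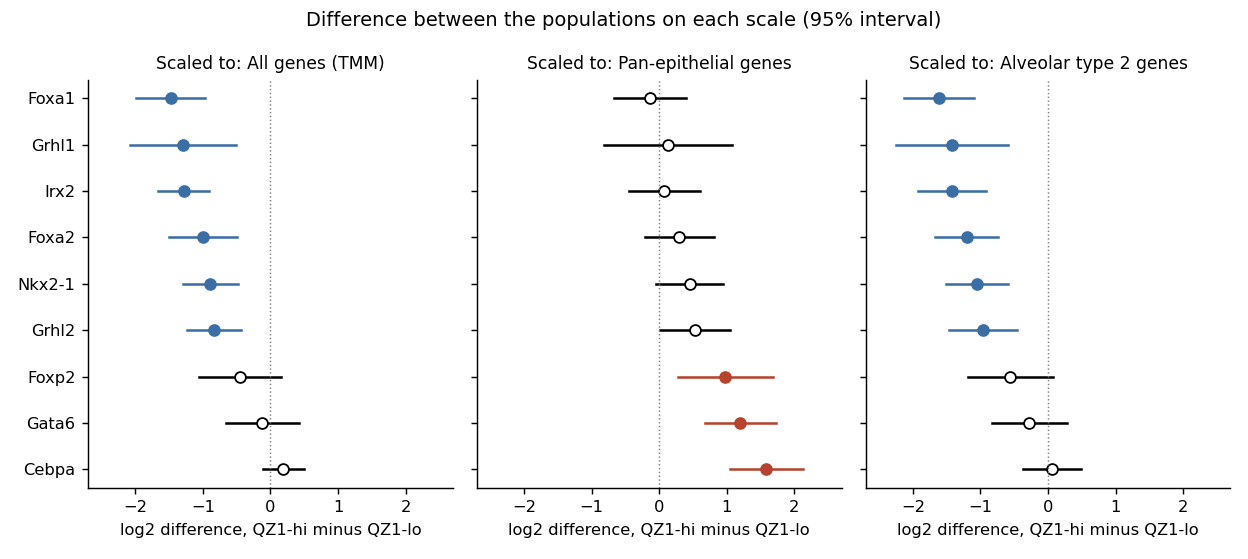
Log2 difference (QZ1-hi minus QZ1-lo, points) with 95% intervals of the 9 factors on 3 scales: TMM over all genes, 10 pan-epithelial genes, and 12 alveolar type 2 genes. Filled points passed an adjusted p of 0.05, with 6 lower (blue) on the TMM and alveolar type 2 scales and 3 higher (red) on the pan-epithelial scale. Of all genes tested, 8.21% were called lower on the TMM scale, 7.39% lower on the alveolar type 2 scale and 79.2% higher on the pan-epithelial scale.

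Correlations of log2 CPM over the 8 libraries follow the difference between the populations for the 6 factors that were lower, so each population's mean was first removed. Pearson's r was then 0.906 for Grhl2 and Irx2, 0.883 for Nkx2-1 and Irx2, and 0.747 for Nkx2-1 and Foxa1. Foxa2 was more weakly tied to these factors, with r of 0.618 to Nkx2-1, 0.456 to Foxa1, 0.437 to Grhl2 and 0.417 to Irx2. The highest r of Foxa2 was with Gata6 (0.761), which was not called lower. Gata6 had r of 0.644 with Grhl2 and -0.595 with Grhl1. Within populations Grhl1 was apart from the other factors that were lower, with r of -0.245 to Nkx2-1, -0.506 to Grhl2 and -0.521 to Irx2. It went with Foxp2 (r of 0.727). Cebpa had r of 0.469 with Nkx2-1 within populations and -0.214 over the 8 libraries. These correlations describe 8 points that share the sort, the library depth and the scaling.

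For each factor, the 3 tested genes with the highest r over the 8 libraries were listed. Irx2 was closest to Ajuba (r = 0.996), a LIM protein of cell junctions, then Myh14 and BC021767. Grhl2 was closest to Pard6b (r = 0.992), a cell polarity gene, then Pfkfb2 and Sars. Foxa1 was closest to Tmc4 (r = 0.992), then Epb41l4b and Arhgef16, and Grhl1 to Entpd3 (r = 0.993), then D030018L15Rik and Tspan8. Nkx2-1 was closest to Wwc1 (r = 0.985), which encodes KIBRA, then Cers3 and Tfcp2l1. Foxa2 was closest to Cbarp (r = 0.982), then Src and Mcu. Foxp2 was closest to Eif4g2 (r = 0.983), then Dnajc22 and Enkd1. Gata6 was closest to A130010J15Rik (r = 0.957), then Fam20b and Hspb11, and Cebpa to Cmtr1 (r = 0.966), then Gbp11 and Gnpat. The lists shared no gene. Each r was picked as the highest over the tested genes, so a high value alone carries no support. For the factors lower in QZ1-hi it also follows the difference between the populations.

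Some of the genes that start within 10 kb of a member were not in the table. The 3 that were in it moved in the same direction as that member on the TMM scale, where 8.21% of all genes tested were called lower. On the pan-epithelial scale none of them was called, with log2 differences of 0.35 for Sfta3-ps, -1.27 for Ttc6 and -0.35 for Gm20554. Distances are between the starts of the gene spans. The mRNA starts of the Irx2 and Foxa2 stretches printed above lie inside the spans of these genes. Sfta3-ps, 7488 bases from the Nkx2-1 start on the same strand, had 36.4 ± 5.94 CPM in QZ1-hi and 73.4 ± 14.5 CPM in QZ1-lo (SD, n = 4), without overlap (log2 fold change -1.01, SE 0.17, edgeR adjusted p = 0.00191). Ttc6, 1325 bases from the Foxa1 start on the other strand, had 0 to 32 counts in QZ1-hi and 82 to 111 counts in QZ1-lo (log2 fold change -2.47, SE 0.76, adjusted p = 0.0447, edgeR). Gm20554, 4134 bases from the Irx2 start on the other strand, had 13 to 74 counts against 83 to 244 (log2 fold change -1.61, SE 0.47, adjusted p = 0.0366, edgeR), although its CPM ranges overlapped. Exons of 3 members overlap an annotated gene on the other strand, by 93 bases for Gata6, 51 bases for Cebpa and 169 bases for Grhl2, and the strand setting of the counting is not given in the sources used here, so reads in those bases are uncertain.

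Relatives of the 9 factors did not move as a block. Of 23 family relatives, 17 were tested, 4 were higher, 4 were lower and 9 were not called, with a median log2 fold change of -0.11. In the Iroquois family Irx1 (66.6 against 124 CPM, log2 fold change -0.89, adjusted p = 0.00201, edgeR), Irx3 (-1.02, adjusted p = 0.0054) and Irx5 (-1.12, adjusted p = 0.00386) were lower on the TMM scale and not called on the pan-epithelial scale. Irx6 had 0.456 ± 0.387 and 1.35 ± 0.274 CPM (adjusted p = 0.179). In the Foxp family Foxp4 was lower on the TMM scale (-0.74, adjusted p = 0.00468, edgeR). It was called higher on the pan-epithelial scale (0.61), below the median of 1.41 of all genes there. Foxp1 was higher on both scales (0.64 and 2.03), at 118 ± 21.2 against 75.7 ± 5.23 CPM on the TMM scale. Foxp1 is also used by endothelial cells.

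The Gata and C/EBP relatives that passed the test were higher. Gata2, a factor of endothelial and blood cells, had 39.0 to 85.0 CPM in QZ1-hi and 2.27 to 13.0 CPM in QZ1-lo (log2 fold change 3.29, SE 0.52, edgeR adjusted p = 0.00138), close to the median of 3.43 of the endothelial markers. Gata5 had a log2 fold change of 2.92 (adjusted p = 0.0251) and Gata3 of 1.88 (adjusted p = 0.0501). Cebpd was higher (137 ± 69.7 against 58.4 ± 6.83 CPM, log2 fold change 1.23, adjusted p = 0.00892), whereas Cebpb (212 ± 74.9 against 215 ± 22.9 CPM) and Cebpg (43.0 ± 3.91 against 46.5 ± 2.36 CPM) were not called. With library size as the only scaling, the number of relatives called higher was 2.

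Of 14 other lung epithelial regulators tested, 6 were lower and 0 higher by edgeR (2 higher at an unadjusted p of 0.05, 1 by DESeq2, 0 by limma voom), with a median log2 fold change of -0.77. Sox2, the airway regulator, had 2.25 to 4.59 CPM in QZ1-hi and 10.5 to 17.3 CPM in QZ1-lo (log2 fold change -2.06, adjusted p = 0.00062, edgeR), and Foxj1, the regulator of cilia, had 13.4 to 35.8 and 68.7 to 131 CPM (-2.07, adjusted p = 0.000849). Klf5 (-1.33), Elf3 (-1.20), Ehf (-0.83) and Tead1 (-0.76) were the other genes lower. On the pan-epithelial scale 7 of the 14 were called higher and 0 lower (1 lower at an unadjusted p of 0.05). The shares of all genes tested were 79.2% higher and 0.462% lower. Ehf (0.52, adjusted p = 0.0372, edgeR) and Tead1 (0.59, adjusted p = 0.0233) were among the 7, both below the median of 1.41 of all genes there. Among those not called on the TMM scale were the alveolar regulators Etv5 (31.7 ± 10.2 against 25.2 ± 3.25 CPM), Id2 (67.8 ± 16.6 against 45.0 ± 7.51 CPM, edgeR adjusted p = 0.0527) and Elf5 (9.86 ± 1.57 against 6.83 ± 1.24 CPM). Sox9, Trp63, Ovol1 and Ovol2 were also not called on that scale.

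Of 12 alveolar type 2 genes, the surfactant class that NKX2-1 and CEBPA act on, 2 were higher, 1 was lower and 9 were not called, with a median log2 fold change of 0.29. Sftpc was higher (4064 against 2371 CPM, log2 fold change 0.78, adjusted p = 0.0231, edgeR), as was the phosphate transporter gene Slc34a2 (0.88, adjusted p = 0.0165), and the junction gene Cldn18 was lower (-1.02, adjusted p = 0.00198). Sftpa1 (905 ± 203 against 889 ± 99.5 CPM), Sftpd (453 ± 86.1 against 585 ± 73.8 CPM) and Abca3 (220 ± 48.5 against 169 ± 21.1 CPM) were not called. The number called higher was 0 without QZ1-lo replicate 2, 1 without QZ1-lo replicate 1 or 4 and 0 with library size as the only scaling. At an adjusted p under 0.01 it was also 0. On the pan-epithelial scale 11 of the 12 were called higher and 0 lower, against 79.2% and 0.462% of all genes tested. Cldn18 was not called there.

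Airway and junction genes went lower with the factors on the TMM scale. All 6 club cell genes were lower (median log2 fold change -1.82), among them Scgb1a1 (-2.38, adjusted p = 0.00227, edgeR), as were all 5 ciliated markers (54.3 to 140 CPM summed against 204 to 414), a count that was 3 without QZ1-lo replicate 2 or 3 or QZ1-hi replicate 4. Of 11 Grainyhead epithelial genes tested, known or proposed targets of GRHL2, 9 were lower and none higher by edgeR, DESeq2 or limma voom or at an unadjusted p of 0.05 (median -1.17), with Cldn4 at -2.31, Cdh1 at -1.34, Esrp1 at -1.21 and Epcam at -1.17. This list shares 6 genes with the pan-epithelial list. On the pan-epithelial scale the club cell, ciliated and Grainyhead lists each had 1 gene called lower and 0 higher. At an unadjusted p of 0.05, 2 Grainyhead genes were higher. Those called lower were Scgb1a1 (-1.07, adjusted p = 0.0147, edgeR), Ccdc78 (-0.80, 0.0362) and Cldn4 (-1.01, 0.001005), where 0.462% of all genes tested were lower. Of 8 alveolar type 1 genes, 5 were lower, among them Aqp5 (-0.98), Ager (-0.76) and Cldn18, which the alveolar type 2 list also holds, and Pdpn, which lymphatic and stromal cells also use, was higher (0.72, adjusted p = 0.0157), a call lost without QZ1-hi replicate 2 and with library size as the only scaling. On the pan-epithelial scale 5 of these 8 were called higher and 0 lower, also at an unadjusted p of 0.05. The shares of all genes tested were 79.2% higher and 0.462% lower. Ager (0.59, adjusted p = 0.0320, edgeR) and Hopx (0.89, adjusted p = 0.00541) turned from lower to higher, both below the median of 1.41 of all genes there. Of 6 gastric-type genes tested, which appear in lung tumors that lose NKX2-1, Muc5ac alone passed the test and was lower (1.90 ± 0.876 against 9.98 ± 4.35 CPM, log2 fold change -2.39, adjusted p = 0.00193), and Hnf4a had 2.30 ± 0.560 and 3.47 ± 2.20 CPM (adjusted p = 0.497). On the pan-epithelial scale Muc5ac was called lower (-1.05, adjusted p = 0.0321, edgeR) and Lgals4 higher (2.39, adjusted p = 0.00478), against 0.462% and 79.2% of all genes tested. The gastric-type genes Gkn1, Pdx1 and Cdx2 had 0 counts in every library, where 3 counts would have been 0.0894 to 0.179 CPM.

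**Figure D5:**
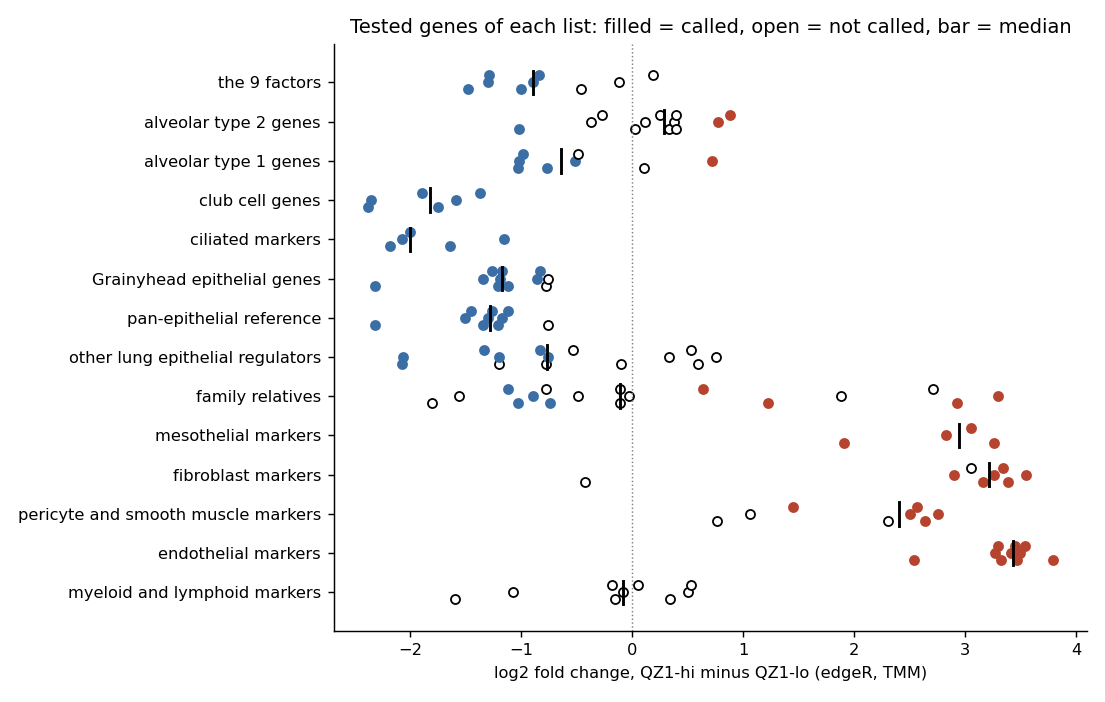
Log2 fold change (QZ1-hi over QZ1-lo, edgeR, TMM scale) of each tested gene of the 9 factors and 13 other lists, with a bar at each list's median and filled points for genes that passed an adjusted p of 0.05 (blue lower, red higher). The factors' median of -0.90 lies on the side of the airway, junction and pan-epithelial lists, alveolar type 2 genes have a median of 0.29, and the endothelial median is 3.43; on the pan-epithelial scale all genes tested shift by a median of 1.41.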

How the data were processed

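Libraries were made by the authors with a stranded total RNA kit from sorted cells and sequenced on a NextSeq500. The deposited values were raw counts per gene, made by the authors with Rsubread and not normalized; the labels name mm10 and DESeq2, and the aligner, annotation and strand setting are not given in the sources used here. Symbols were matched for 25275 of 27179 Entrez Gene identifiers, and 1904 had none. Exonic lengths and overlaps were taken from GENCODE on GRCm38 and promoter sequences from RefSeq on GRCm38.p6. Upstream stretches were used for 6 of the 9 members, and none was used for Foxp2, Gata6 and Grhl2.

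The test was edgeR 4.0.16 under R 4.3.3 (TMM, filterByExpr with a minimum count of 10 and minimum total of 15, quasi-likelihood F test of 4 QZ1-hi against 4 QZ1-lo libraries, Benjamini-Hochberg adjustment over 15583 genes, threshold 0.05). SEs are the absolute log2 fold change over the root of F. Correlations used log2 CPM with a prior count of 2. The fits were tested on simulated data in which few genes changed and the reference genes did not. That does not check the scaling where the reference genes themselves differ between the populations. Total counts ranged from 18380918 to 26847938, and floors of 3 counts cover counting error only, because PCR copies cannot be told from molecules without molecular identifiers. Single values per library were compared by exact permutation over 70 assignments, whose smallest two-sided p is 0.0286.

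The alternatives were DESeq2 1.42.0, limma 3.58.1 voom with quality weights, DESeq2 size factors, library size only, no filter, a floor of 10 counts for each library, robust shrinkage, a threshold of 0.01, removal of mitochondrial and ribosomal RNA genes, each library left out, and other reference genes for the pan-epithelial scale. Genes named were the 9 members, genes of the lists, the 3 genes most correlated with each member and genes starting within 10 kb. The members and lists were chosen with earlier results of these data known. Some genes of the lists are not reported by name here. The other experiments of the study were not analysed here.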

Additional observations from a re-analysis of the deposited data

Results flagged for a closer look

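In each group of 4 libraries the highest and lowest library were compared with the range of the group, for the 9 factors and the 16 lists, and 4 of 50 groups held a library that stood far from the other 3, where chance gives about 1 in 20. Foxa1 stood at 53.8 CPM in QZ1-lo replicate 3, against 34.0 to 35.2 CPM in QZ1-lo replicates 1, 2 and 4, and without that library its log2 fold change stayed past the threshold. Irx2 was low in 1 library of each population, at 36.9 CPM in QZ1-lo replicate 2 (the others had 47.3 to 49.4 CPM) and at 13.2 CPM in QZ1-hi replicate 3 (the others had 19.7 to 20.99 CPM). The mean log2 CPM of the myeloid and lymphoid markers was 3.79 in QZ1-lo replicate 3, against 4.39 to 4.48 in the other QZ1-lo libraries. QZ1-lo replicate 3 was thus set apart both by Foxa1 and by these markers, and it also had the highest summed endothelial level of the QZ1-lo libraries, 324 CPM against 76.0 to 138. The part of these levels in the Foxa1 value was not tested.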

How the results depend on the processing

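The 6 factors called lower were 6 under 8 alternatives, 4 at an adjusted p under 0.01, where Foxa2 (-0.99, adjusted p = 0.0112) and Grhl1 (-1.29) dropped out, and 5 to 6 with a library left out, and 0 were called higher throughout. Nkx2-1, Foxa1, Grhl2 and Irx2 kept direction and call under all alternatives on the TMM or library size scale. With library size only, all genes had a median log2 fold change of -0.44, 882 genes were higher and 2509 lower against 1540 and 1280, and Cebpa was at -0.25; at an adjusted p under 0.01 there were 902 and 665. With a library left out, log2 fold changes were -1.64 to -1.12 for Grhl1 (5 of 8 not past the threshold) and -0.37 to 0.043 for Gata6 (positive in 2 of 8, 0.018 and 0.043). On the pan-epithelial scale they were 0.54 to 1.13 for Foxp2, -0.33 to 0.37 for Grhl1 (negative without QZ1-hi replicate 3), 0.40 to 0.61 for Grhl2 (called without QZ1-hi replicate 1, adjusted p = 0.0380, or 3, 0.0477) and -0.10 to 0.21 for Irx2 (negative without QZ1-lo replicate 2 or QZ1-hi replicate 4). With Epcam and Cdh1 alone as reference Irx2 was at -0.0083. With alveolar type 2 genes as reference the values were -1.05 for Nkx2-1, -1.61 for Foxa1, -1.20 for Foxa2, -0.56 for Foxp2, -0.28 for Gata6, 0.064 for Cebpa, -1.42 for Grhl1, -0.96 for Grhl2 and -1.42 for Irx2. The causes were not tested. Of 510 recomputed list counts, 475 stayed within 1.5 times. No paired analysis was possible because the labels give no mouse for any library and the replicate numbers only follow the sample order.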
